A study of Rattus with 6 samples.

Results

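Glutathione, thioredoxin, iron and NRF2 genes were followed as a set of 47 named genes in RNA sequencing libraries made from vascular smooth muscle cells in culture. The set was drawn by gene name from the protein-coding rows of the deposited table, and all 47 names were found among its 54012 genes (22058 of them protein coding). Of these, 45 had a mean of at least 1 FPKM (the deposited unit, reads of a gene relative to its length and to a total per library) over the 6 libraries and were tested among 12080 genes. The other two, Gpx3 and Txnrd2, are described by their values. The tested cultures were 3 si-CDCP1 libraries (siRNA against CDCP1, genotype label CDCP1 knockdown), and they were compared with 3 si-NC libraries (the labels' si-NC, genotype label WT). Every culture of both groups received angiotensin II (Ang II), a vasoconstrictor peptide that also stimulates NADPH oxidases of the vessel wall. The cells are labelled as primary cultures of rat aorta, and the labels do not say whether the libraries came from separate animals or isolations. The labels give no dose of Ang II, no siRNA sequence and no times. Gene names are mouse names, because the values were deposited for mouse genes on the build mm10 although the organism label is rat. Whether rat reads were aligned to mouse genes was not tested, which limits what genes near 0 reads and levels compared between genes can show.

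NRF2, encoded by Nfe2l2, is a transcription factor that is held low by KEAP1, a sensor protein with reactive cysteines that passes it on for degradation. When oxidants or electrophiles modify KEAP1, NRF2 accumulates, pairs with small MAF proteins and switches on genes for glutathione synthesis, thioredoxin recycling, quinone reduction, heme breakdown, ferritin and NADPH supply. Glutathione and thioredoxin carry electrons from NADPH to peroxidases, GPX4 reduces peroxidized membrane lipids and thereby limits the iron-dependent cell death called ferroptosis, and ferritin stores iron out of reach of such reactions. In the artery wall these systems handle the superoxide and hydrogen peroxide that Ang II signalling produces.

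Per library, 16050517 to 19771638 reads fell in listed genes. The total that the FPKM values imply as divisor was not the same share of these reads everywhere: listed reads came to 99.9%, 99.9% and 104% of it in si-CDCP1 replicates 1, 2 and 3, against 98.4% in each si-NC library. Cdcp1, the siRNA target, had 0, 5 and 0 reads in si-CDCP1 and 2, 2 and 1 reads in si-NC, too few to test the knockdown labels. Of 8 smooth muscle markers, Acta2 and Smtn had a mean of at least 1 FPKM, while Tagln, Cnn1 and Myh11 averaged 0.151, 0.0657 and 0.0241 FPKM, so that these 3 defining markers were near 0, with the same limit from the genome used. The summed smooth muscle markers ranged from 44.5 to 76.0 FPKM in si-CDCP1 and from 46.0 to 50.02 FPKM in si-NC. The 5 endothelial markers summed to between 0.802 and 0.874 FPKM in si-CDCP1 and between 0.676 and 0.742 FPKM in si-NC, with Cdh5 at 0. Their members went both ways: Tek was higher in every si-CDCP1 library (means 0.295 and 0.180 FPKM) and Kdr lower (0.112 and 0.165 FPKM). For the 5 fibroblast markers the sums were 10.7 to 11.1 FPKM in si-CDCP1 and 11.5 to 12.6 FPKM in si-NC, and for the 4 adipocyte markers, of which Adipoq and Cfd were at 0, they were 3.29 to 4.48 FPKM in si-CDCP1 and 2.27 to 3.10 FPKM in si-NC. Single genes carried both sums. Pdgfra averaged 8.69 FPKM in si-CDCP1 and 10.4 FPKM in si-NC, while the other fibroblast markers overlapped. Fabp4, at 3.98 and 2.78 FPKM, was nearly the whole adipocyte sum. Blood cell, epithelial and erythroid sums overlapped between the groups. Blood cell markers went both ways: Lyz2 was higher in every si-CDCP1 library (means 2.11 and 1.65 FPKM). Cd68 was lower in each (0.822 and 1.27 FPKM), as was Csf1r (0.0125 and 0.0395 FPKM). The part of these cell types in the results was not tested, and in bulk RNA fewer cells of a type and less RNA per cell cannot be told apart. The si-CDCP1 replicate 3 library stood apart: its recovered reads differed from those of the other two si-CDCP1 libraries with a chi-square per degree of freedom of 17.8 and 13.6, against 2.98 to 3.51 for the other pairs of replicates. Results below are therefore given with and without it.

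The 47 genes spanned a wide range of levels. Fth1, the ferritin heavy chain that oxidizes iron for storage, was the highest and made up 43.5% of the summed mean FPKM of the set, and Ftl1, the ferritin light chain, made up 16.9%. Sod1, the cytosolic copper-zinc superoxide dismutase (3.68%), Gpx4 (3.52%) and Txn1, cytosolic thioredoxin (3.05%), came next. At the other end, Gpx3, the secreted glutathione peroxidase, averaged 0.232 ± 0.215 FPKM in si-CDCP1 and 0.433 ± 0.263 FPKM in si-NC, on 0, 8 and 12 reads in si-CDCP1 and 17, 20 and 5 reads in si-NC. Txnrd2, the mitochondrial thioredoxin reductase, had 6, 70 and 20 reads in si-CDCP1 and 104, 6 and 4 reads in si-NC, so that single libraries of both groups set its level. The groups overlapped for both genes.

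**Figure D1:**
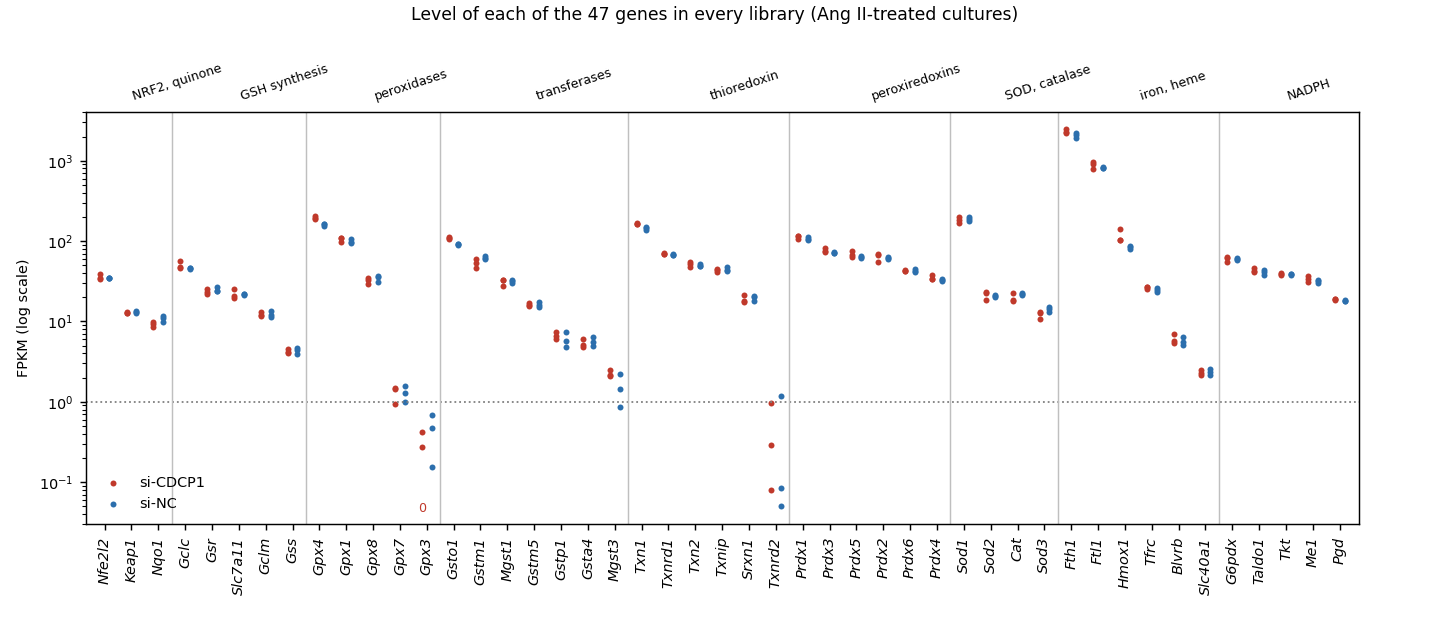
FPKM (log scale) of each of the 47 genes in every library, ordered by role and then by level. Red points are the 3 si-CDCP1 libraries and blue points the 3 si-NC libraries, the dotted line marks 1 FPKM and a printed 0 marks a library with no reads. Levels run from Fth1, at a mean of 2314 FPKM in si-CDCP1 and 2075 FPKM in si-NC, down to Txnrd2 and Gpx3 below the line, and the groups lie close together for most genes.

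Over all 12080 genes limma called 0 at a Benjamini-Hochberg (BH) adjusted p of 0.05, a share of 0%, and likewise 0 of the 45 tested genes of the set. Limma voom on recovered reads called 5 of 14365 genes (0.0348%) and 0 of the 47. At an unadjusted p under 0.05 there were 1722 genes in all (14.3%), and 7 of the 45. Of these 7, 4 were higher in si-CDCP1 (Gsto1, Gpx4, Txn1 and Hmox1), against 8.94% of all genes, and 3 were lower (Sod3, Nqo1 and Gstm1), against 5.31%. Over all genes that p split into 1080 higher and 642 lower, and with FPKM sums made equal into 537 higher and 1301 lower. In the set that scaling gave 4 higher, against 4.45% of all genes, and 4 lower, against 10.8%. The set's shares without it are near the background and are not a result about the set. In 7 of the 45 genes all 3 si-CDCP1 values lay above all si-NC values, against 14.4% of all genes, and in 2 genes all lay below, against 10.6%. The median log2 difference, si-CDCP1 minus si-NC on the log2(FPKM + 1) scale, was 0.04 over the 45 genes and 0.01 over all genes. With equal FPKM sums and with quantile normalisation the median of the 45 was -0.011 and -0.020. The medians of all genes also moved under these settings and are given in the last section. In the main fit the log2 difference was above 0 for 26 of the 45, against 52.3% of all genes. The log2(FPKM + 1) scale understates the change of low genes. With 3 libraries against 3, an exact two-sided permutation test can give no p below 0.1.

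In voom without si-CDCP1 replicate 3, which called 491 of 14365 genes, 6 of the 47 genes rose in si-CDCP1, Gpx4, Hmox1, Ftl1, Gsto1, Txn1 and Fth1, against 2.38% of all genes, and 0 fell, against 1.04%. Their voom BH-adjusted p-values were 0.000399, 0.00184, 0.00242, 0.00281, 0.0343 and 0.0494. That library was singled out from these same reads, and leaving out the most deviant library lowers the spread within its group. These p-values are therefore likely too small, and the count is not a result about the set. All 6 were between 866 and 1968 bases long, and their values with a length trend removed are given below. Limma with library weights called 6 of the 45: Gpx4, Gsto1, Txn1, Hmox1 and Ftl1 rose (4.62% of all genes did) and Gstm1 fell (2.54% did). The weights are estimated from the same data. They were 0.60, 5.11 and 0.165 for si-CDCP1 replicates 1, 2 and 3 and 1.33, 1.08 and 1.37 for the si-NC replicates. The weighted si-CDCP1 mean was thus set mostly by replicate 2, so these calls rest largely on 1 library of that group. Limma on log2 FPKM without si-CDCP1 replicate 3 called 0 of the 45, and its lowest adjusted p among them was 0.0719, for Gpx4. At an unadjusted p under 0.05 it had 9 of the 45 higher, against 10.8% of all genes, and 1 lower, against 5.81%. Leaving any 1 of the other 5 libraries out of voom, an addition made with the data in view, gave 0 calls among the 47.

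GPX4 is the peroxidase for membrane lipid peroxides. Gpx4 (ENSMUSG00000075706, mm10 chromosome 10, 80047166 to 80056439, plus strand) had 203, 193.7 and 189.5 FPKM in si-CDCP1 replicates 1, 2 and 3, against 164, 153 and 162 FPKM in si-NC replicates 1, 2 and 3. Every si-CDCP1 library was above every si-NC library, and replicate 3 was the lowest of its group. The means were 195 ± 6.91 FPKM in si-CDCP1 and 159.8 ± 5.96 FPKM in si-NC (SD, n = 3 each). The log2 difference was 0.29 (SE 0.051, limma adjusted p = 0.238), or 0.31 without si-CDCP1 replicate 3. A transcribed processed pseudogene of Gpx4, Gpx4-ps2, is listed with the same protein annotation and 21.5% as many reads. It had 75.8, 70.1 and 66.5 RPM (recovered reads relative to the library's total, without length) in si-CDCP1 and 63.9, 56.1 and 60.7 RPM in si-NC, also without overlap. Reads of the gene and of this copy could be exchanged, so both values are uncertain. Their sum, 407.7 ± 16.6 RPM in si-CDCP1 and 335.8 ± 14.1 RPM in si-NC, differed by a log2 ratio of 0.28.

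Among the other glutathione peroxidases the groups overlapped. Gpx1, the abundant cytosolic and mitochondrial enzyme, had 110.5, 98.05 and 108 FPKM in si-CDCP1 and 96.3, 93.5 and 104.7 FPKM in si-NC. Gpx8 and Gpx7, peroxidases of the endoplasmic reticulum, averaged 32.1 ± 2.82 and 1.29 ± 0.299 FPKM in si-CDCP1 and 34.5 ± 2.95 and 1.29 ± 0.292 FPKM in si-NC.

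Hmox1 encodes heme oxygenase, the inducible enzyme that opens heme to biliverdin, carbon monoxide and iron. Hmox1 (ENSMUSG00000005413, mm10 chromosome 8, 75093621 to 75100589, plus strand) had 101.8, 102 and 143 FPKM in si-CDCP1 replicates 1, 2 and 3, against 87.0, 79.9 and 83.5 FPKM in the si-NC replicates. The groups did not overlap, and si-CDCP1 replicate 3 was far above the other 5 libraries. The log2 difference was 0.45 (SE 0.13, limma adjusted p = 0.283), and 0.29 without that library. Blvrb, a biliverdin reductase gene, had 6.91, 5.78 and 5.32 FPKM in si-CDCP1 and 5.58, 6.37 and 5.15 FPKM in si-NC, with overlap.

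Both ferritin chains had higher means in si-CDCP1. Fth1 (ENSMUSG00000024661, mm10 chromosome 19, 9982703 to 9985092, plus strand) had 2445, 2225 and 2271 FPKM in si-CDCP1, against 2215, 1925 and 2085 FPKM in si-NC. The lowest si-CDCP1 library was only just above the highest si-NC library. Its log2 difference was 0.16 (SE 0.072, limma adjusted p = 0.366), and 0.17 without si-CDCP1 replicate 3. Ftl1 had 958.7, 913.6 and 798.5 FPKM in si-CDCP1, against 843.4, 801.4 and 803.6 FPKM in si-NC. Here si-CDCP1 replicate 3 was the lowest of all 6 libraries while the other two si-CDCP1 libraries were the highest, and the log2 difference was 0.12 (SE 0.076, limma adjusted p = 0.468) with and 0.20 without it. Ftl1-ps1, a ferritin light chain copy, had 5.33% as many reads as Ftl1, with which it could share them. The ratio of heavy to light chain FPKM was 2.61 ± 0.211 in si-CDCP1 and 2.54 ± 0.121 in si-NC (SD, n = 3 each; exact two-sided permutation p = 0.8, 1 of 2 ratios computed).

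The iron transporters gave no separation of the groups. Tfrc, the transferrin receptor through which cells take up iron, had 25.4, 27.2 and 27.2 FPKM in si-CDCP1 and 24.9, 23.4 and 25.7 FPKM in si-NC. Slc40a1, ferroportin, the iron exporter, had 2.45, 2.30 and 2.14 FPKM in si-CDCP1 and 2.58, 2.13 and 2.32 FPKM in si-NC. Of the 6 iron and heme genes, 5 had log2 differences above 0 with all libraries, against 52.3% of all genes. The median of the 6 was 0.11, and 0.15 without si-CDCP1 replicate 3, when all 6 were above 0, Slc40a1 only at 0.015. With equal FPKM sums, Hmox1 was at 0.39, Fth1 0.10, Ftl1 0.067, Tfrc 0.051, Blvrb 0.015 and Slc40a1 -0.058.

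Txn1, the disulfide reductase that serves peroxiredoxins and ribonucleotide reductase, had 168.7, 160.9 and 161 FPKM in si-CDCP1 and 146.6, 137 and 149 FPKM in si-NC. Every si-CDCP1 value was above every si-NC value. The gene (ENSMUSG00000028367, mm10 chromosome 4, 57943373 to 57956411, minus strand) had a log2 difference of 0.18 (SE 0.051, limma adjusted p = 0.28), and 0.19 without si-CDCP1 replicate 3. Txnrd1, the cytosolic reductase that recharges it, had 68.2, 69.7 and 71.3 FPKM in si-CDCP1 and 66.3, 66.4 and 68.5 FPKM in si-NC. Txnip, which binds and inhibits thioredoxin, had 43.2, 41.0 and 44.6 FPKM in si-CDCP1 and 47.9, 43.8 and 42.9 FPKM in si-NC. For Srxn1, sulfiredoxin, which repairs over-oxidized peroxiredoxins, the values were 21.2, 18.1 and 17.5 FPKM in si-CDCP1 and 20.5, 20.2 and 17.97 FPKM in si-NC. Txn2, mitochondrial thioredoxin, averaged 51.5 ± 3.33 FPKM in si-CDCP1 and 49.9 ± 1.40 FPKM in si-NC. The groups overlapped for these other four genes.

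**Figure D2:**
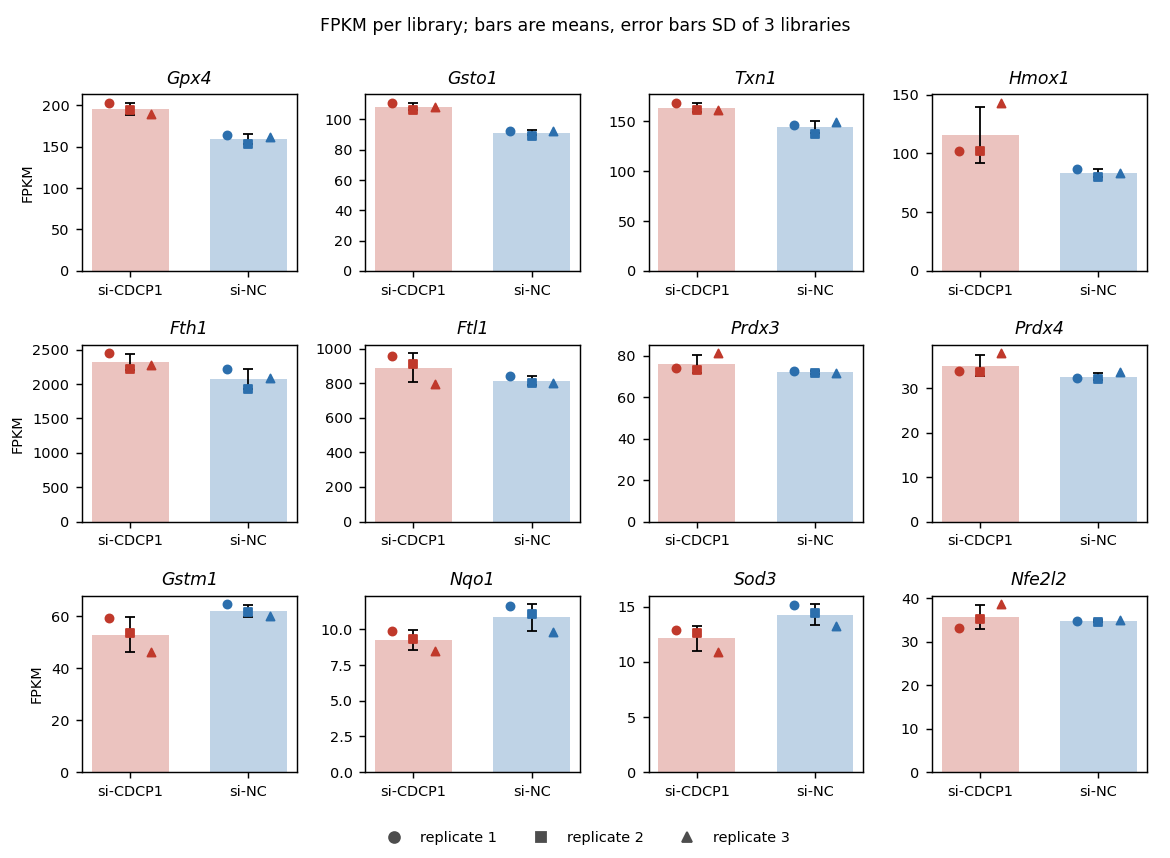
FPKM of 12 genes in each library, with si-CDCP1 on the left and si-NC on the right of each panel. Bars are means, error bars the SD of 3 libraries, and symbols the replicates. Gpx4, Gsto1, Txn1, Hmox1, Fth1, Prdx3 and Prdx4 separate the groups upward, the last 3 by small margins, and Gstm1 and Sod3 downward. The triangle of si-CDCP1 replicate 3 is the extreme library for Hmox1, Ftl1, Prdx3, Prdx4, Gstm1, Nqo1, Sod3 and Nfe2l2.

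The peroxiredoxins, thiol enzymes that clear hydrogen peroxide, were all expressed, with Prdx1 the highest and Prdx4 the lowest. Prdx1, a cytosolic member, had 115.5, 114.8 and 105.7 FPKM in si-CDCP1 and 111, 104 and 107 FPKM in si-NC, with overlap. Prdx3, the mitochondrial member, had 74.3, 73.1 and 81.2 FPKM in si-CDCP1 and 72.7, 71.6 and 71.7 FPKM in si-NC. Prdx4, the member of the endoplasmic reticulum, had 33.95, 33.65 and 37.9 FPKM in si-CDCP1 and 32.4, 32.03 and 33.59 FPKM in si-NC. These were the 2 of 6 whose groups did not overlap, where 14.4% of all genes had every si-CDCP1 value higher. The margins of Prdx3 and Prdx4 were small, with their highest value in si-CDCP1 replicate 3, as for 34% of all genes. Their log2 differences were 0.08 (SE 0.053) and 0.10 (SE 0.059), with limma adjusted p-values of 0.493 and 0.448, and without that library they were 0.03 and 0.05. Prdx2 and Prdx5 showed the opposite order within si-CDCP1: Prdx5 had 74.3, 67.97 and 62.8 FPKM there, against 61.6, 65.4 and 63.2 FPKM in si-NC, and Prdx2 had 69.1, 66.3 and 55.3 FPKM, against 59.5, 63.1 and 61.7 FPKM. Genes on the other strand overlap both (Trmt112 and Prdx5, Junb and Rnaseh2a and Prdx2), and without a stated strand setting their reads cannot be told apart. Prdx6, which also acts on phospholipid peroxides, averaged 42.6 ± 0.731 FPKM in si-CDCP1 and 43.0 ± 1.64 FPKM in si-NC.

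Glutathione transferases, which join glutathione to electrophiles, had differences in both directions, none past the threshold in unweighted limma on all 6 libraries. Gsto1, an omega-class member that also reduces dehydroascorbate (ENSMUSG00000025068, mm10 chromosome 19, 47854970 to 47864790, plus strand), had 111, 106.5 and 108 FPKM in si-CDCP1 and 92.7, 89.2 and 92.1 FPKM in si-NC. The groups lay well apart, and the log2 difference was 0.25 (SE 0.044, limma adjusted p = 0.238), and 0.25 without si-CDCP1 replicate 3. Cfap43, on the other strand, overlaps Gsto1 and had 23.4% as many reads. Gstm1, a mu-class member (mm10 chromosome 3, 108012255 to 108017973, minus strand), had 59.3, 53.6 and 46.2 FPKM in si-CDCP1 and 64.7, 61.5 and 60.2 FPKM in si-NC. All si-CDCP1 values were lower, with replicate 3 the lowest, and the log2 difference was -0.23 (SE 0.090, limma adjusted p = 0.332), and -0.14 without it.

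Gstp1, the pi-class transferase, had 6.03, 7.46 and 6.52 FPKM in si-CDCP1 and 5.65, 4.86 and 7.31 FPKM in si-NC, but a listed gene without a name that carries the same protein annotation held 278% as many reads, so that its level is uncertain. Together they had 17.7 ± 2.60 RPM in si-CDCP1 and 18.2 ± 0.664 RPM in si-NC. Gstm5, Gsta4, which conjugates lipid aldehydes, and the membrane-bound Mgst1 averaged 16.1, 5.33 and 31.2 FPKM in si-CDCP1 and 16.2, 5.66 and 31.7 FPKM in si-NC, with overlap. Mgst3, another membrane-bound member, had 40, 44 and 37 reads in si-CDCP1 and 19, 40 and 28 reads in si-NC.

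For the NRF2 gene itself and its inhibitor the groups overlapped. Nfe2l2 had 33.3, 35.2 and 38.7 FPKM in si-CDCP1 and 34.7, 34.6 and 35.0 FPKM in si-NC, with si-CDCP1 libraries both below and above all si-NC libraries. Keap1 had 13.1, 12.8 and 12.7 FPKM in si-CDCP1 and 12.8, 13.5 and 13.1 FPKM in si-NC. Nqo1, a quinone reductase that is a classical NRF2 target (mm10 chromosome 8, 107388225 to 107403206, minus strand), had 9.89, 9.32 and 8.5 FPKM in si-CDCP1 and 11.6, 11.1 and 9.79 FPKM in si-NC. The groups overlapped through 1 library each, and the log2 difference was -0.21 (SE 0.081, limma adjusted p = 0.332), and -0.15 without si-CDCP1 replicate 3. Nqo1 passed the threshold under none of the settings run.

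Values of the glutathione synthesis genes overlapped between the groups throughout. Slc7a11, the cystine importer that feeds the pathway, had 19.8, 20.9 and 25.6 FPKM in si-CDCP1 and 21.7, 22.0 and 21.5 FPKM in si-NC, so that the other two si-CDCP1 libraries were below, and replicate 3 above, every si-NC library. Gclc, the catalytic subunit of the rate-limiting glutamate-cysteine ligase, had 47.1, 46.6 and 56.7 FPKM in si-CDCP1 and 45.7, 44.99 and 46.8 FPKM in si-NC. Its modifier subunit Gclm had 11.8, 11.98 and 13.0 FPKM in si-CDCP1 and 13.3, 12.1 and 11.4 FPKM in si-NC. The ratio of Gclc to Gclm was 4.09 ± 0.249 in si-CDCP1 and 3.76 ± 0.341 in si-NC (SD, n = 3 each; exact two-sided permutation p = 0.3). Gss, glutathione synthetase, and Gsr, which reduces oxidized glutathione, averaged 4.29 and 23.6 FPKM in si-CDCP1 and 4.32 and 24.9 FPKM in si-NC.

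Superoxide dismutases and catalase convert superoxide to peroxide and peroxide to water. The si-CDCP1 replicate 3 library was the lowest of the 6 libraries for all 4 of them, as it was for 30% of all genes. Sod3, the extracellular enzyme that is abundant in arteries (ENSMUSG00000072941, mm10 chromosome 5, 52363791 to 52371418, plus strand), had 12.9, 12.6 and 10.9 FPKM in si-CDCP1 and 15.2, 14.4 and 13.3 FPKM in si-NC. All si-CDCP1 values were lower, and the log2 difference was -0.22 (SE 0.081, limma adjusted p = 0.32), and -0.15 without replicate 3. Cat had 22.6, 18.6 and 17.95 FPKM in si-CDCP1 and 21.4, 21.9 and 22.5 FPKM in si-NC. Sod1 had 201, 183 and 168 FPKM in si-CDCP1 and 197.5, 179 and 186 FPKM in si-NC, and Sod2, the mitochondrial manganese enzyme, had 23.4, 22.9 and 18.7 FPKM, against 20.3, 21.2 and 20.8 FPKM. In Sod2 the other two si-CDCP1 libraries were the highest of the 6.

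Enzymes that supply NADPH to these systems overlapped between the groups without exception. G6pdx, which opens the pentose phosphate pathway, had 61.8, 63.4 and 55.1 FPKM in si-CDCP1 and 59.3, 58.7 and 62.3 FPKM in si-NC. Ikbkg, on the other strand, overlaps G6pdx and had 60.8% as many reads. Me1, the cytosolic malic enzyme, had 30.8, 33.3 and 36.6 FPKM in si-CDCP1 and 32.6, 31.9 and 30.2 FPKM in si-NC. Pgd, Taldo1 and Tkt, later enzymes of the pentose phosphate pathway, averaged 18.7, 43.3 and 38.6 FPKM in si-CDCP1 and 18.1, 41.0 and 38.9 FPKM in si-NC.

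**Figure D3:**
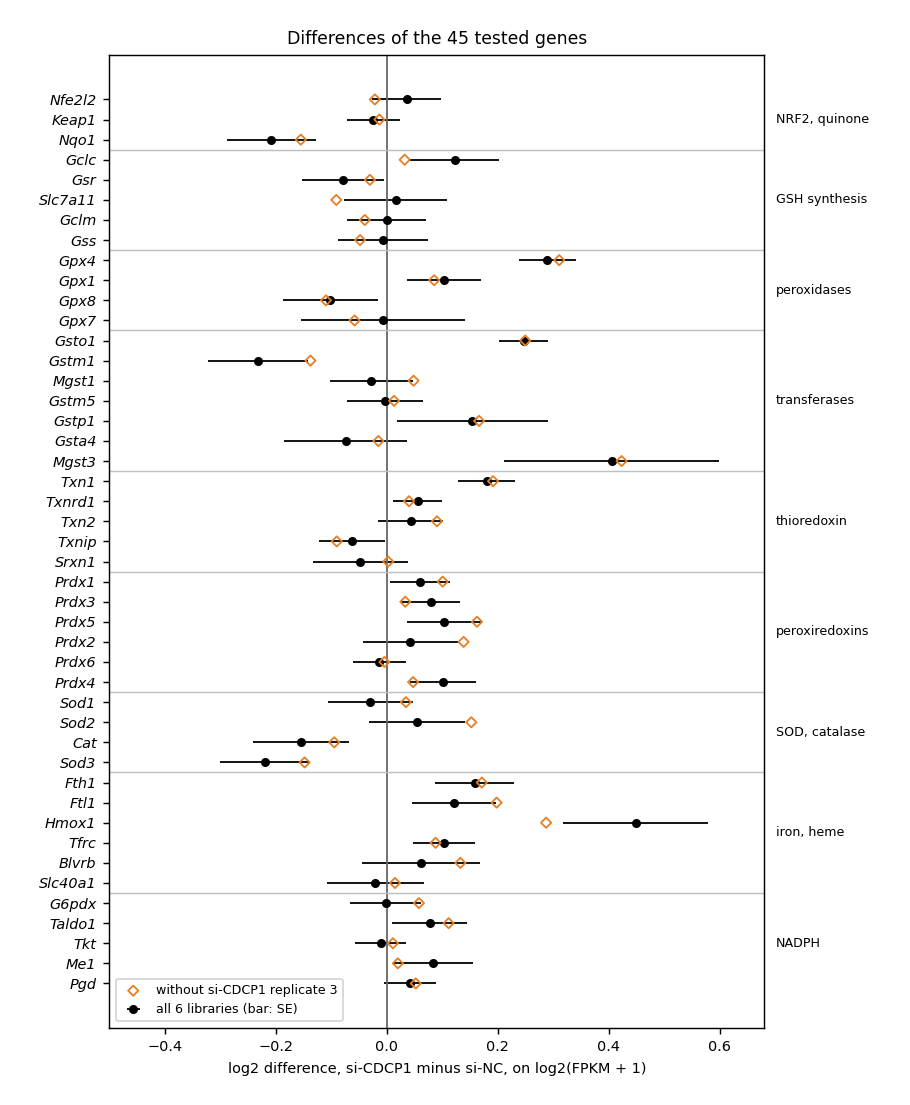
Log2 difference (si-CDCP1 minus si-NC, on log2(FPKM + 1)) of the 45 tested genes, by role. Black points with SE bars use all 6 libraries and open diamonds leave out si-CDCP1 replicate 3, with Hmox1 at 0.45 and 0.29 and Gpx4 at 0.29 and 0.31.

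Where the highest and lowest values fell differed by library. In si-CDCP1 replicate 3, 8 of the 45 genes had their highest value (34% of all genes did) and 16 their lowest (30% did). The 8 were Hmox1, Gclc, Slc7a11, Nfe2l2, Me1, Txnrd1, Prdx3 and Prdx4. The 16 were Sod1, Sod2, Sod3, Cat, Ftl1, Prdx2, G6pdx, Tkt, Gstm1, Gsta4, Mgst1, Txn2, Srxn1, Gsr, Keap1 and Nqo1. The highest value of 19 of the 45 genes was in si-CDCP1 replicate 1, against 16.4% of all genes, and the lowest value of 16 was in si-NC replicate 2, against 18.5%.

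**Figure D4:**
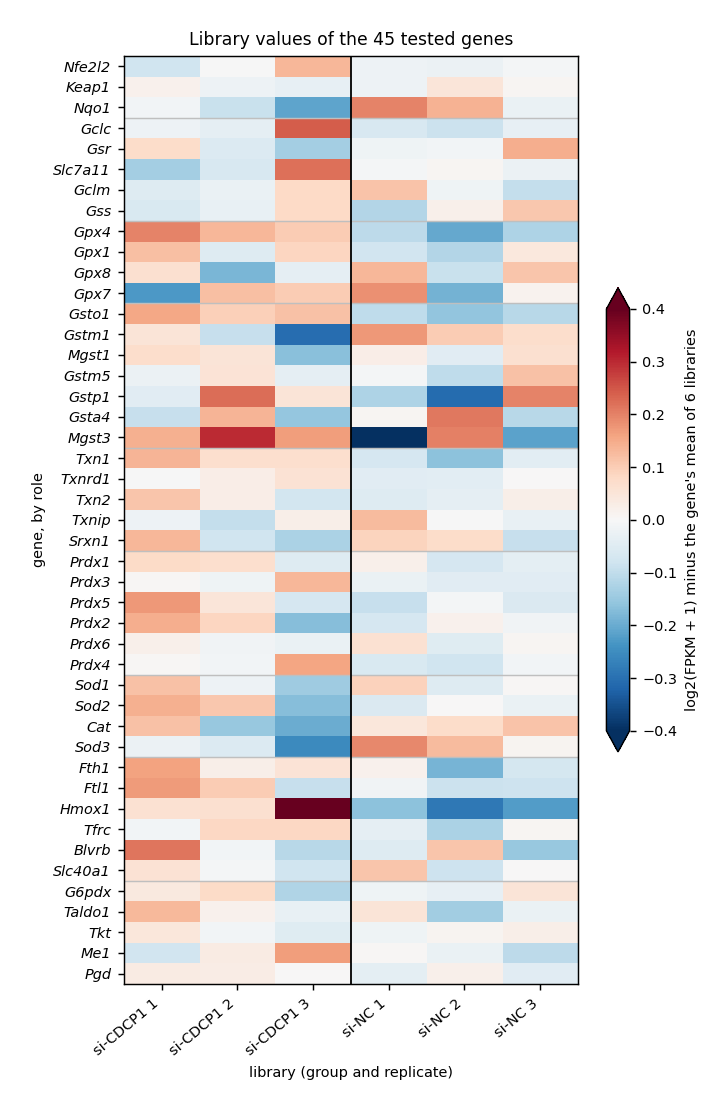
Log2(FPKM + 1) of each tested gene in each library minus its mean over the 6 libraries, with si-CDCP1 replicates 1 to 3 left and si-NC replicates 1 to 3 right of the black line. Red is above and blue below the gene's mean. The si-CDCP1 replicate 3 column is red for Hmox1, Gclc and Slc7a11 and blue for Gstm1, Sod3 and Nqo1.

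Gene length moved with these values. The 4 genes higher at an unadjusted p under 0.05 were all between 1000 and 2000 bases long, a bin with 14 of the 45 genes, in which 14.3% of all genes were higher at that p. Over all tested genes the deviation of si-CDCP1 replicate 1 from the mean of the libraries had a Spearman correlation of -0.31 with length (12080 genes, described only, since genes share libraries). In the other 5 libraries it lay between -0.04 and 0.09. With the length trend of each library removed, an alternative added after the data had been seen, the log2 differences were 0.25 for Gpx4, 0.21 for Gsto1, 0.14 for Txn1, 0.41 for Hmox1 and 0.12 for Fth1, and 0 of the 45 genes were called, with 4 higher and 3 lower at an unadjusted p under 0.05, against 7.68% and 6.37% of all genes. Leaving out si-CDCP1 replicate 3 as well gave 0.26 for Gpx4, 0.23 for Hmox1, 0.14 for Ftl1, 0.20 for Gsto1, 0.13 for Txn1 and 0.11 for Fth1. Without that library but with the trend kept, limma gave 0.31, 0.29, 0.20, 0.25, 0.19 and 0.17 for these genes. With the trend removed and without that library, their limma adjusted p-values ran from 0.0753 to 0.402. With the trend kept and without that library they ran from 0.0719 to 0.312, so limma, unlike voom, called none of them either way.

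**Figure D5:**
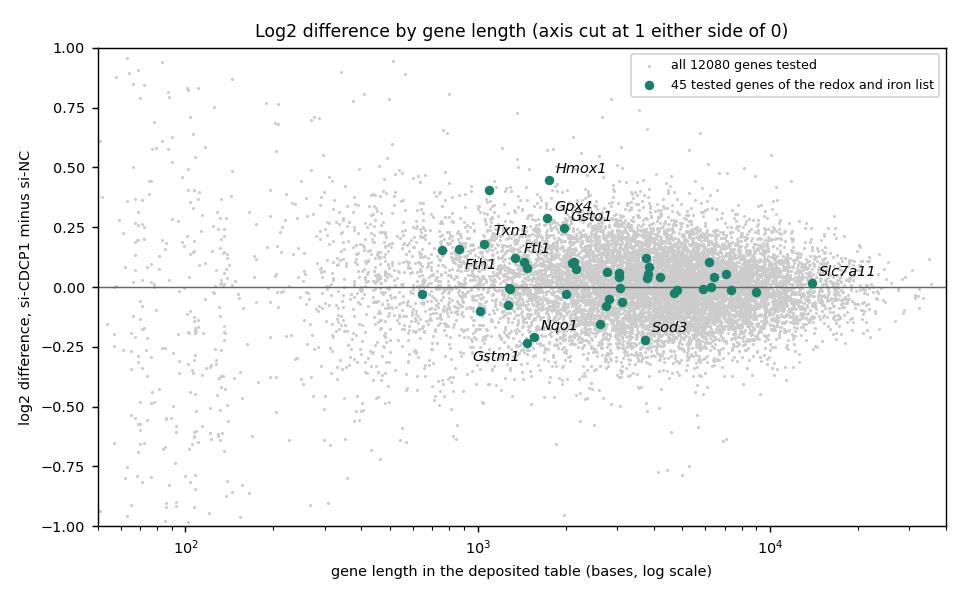
Log2 difference (si-CDCP1 minus si-NC) against gene length in bases (log scale) for all 12080 tested genes in grey and the 45 of the set in green. Gpx4, Gsto1, Txn1 and Hmox1 lie between 1000 and 2000 bases, and Slc7a11, the longest gene of the set at 13922 bases, lies near 0. The 24 genes with a difference beyond 1 in either direction, none of them in the set, are outside the axes.

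Other genes of the same pathways, taken from 6 lists, numbered 118 gene IDs in the table, of which 91 were tested. Limma called 0 of them (voom on the recovered reads called 0 as well). At an unadjusted p under 0.05, 12 were higher and 7 lower in si-CDCP1, against 8.94% and 5.31% of all genes, and the median log2 difference was 0.05. Mt1, a metallothionein that binds metals and scavenges oxidants, had 95.5, 83.8 and 105 FPKM in si-CDCP1 and 66.5, 67.6 and 78.1 FPKM in si-NC, with a log2 difference of 0.41 (SE 0.097, limma adjusted p = 0.267). Pcbp1, an iron chaperone that loads ferritin, had 266.6, 259.7 and 286 FPKM in si-CDCP1 and 218.5, 234.8 and 219 FPKM in si-NC, with a log2 difference of 0.27 (SE 0.057). Both genes separated the groups, and both rose in voom without si-CDCP1 replicate 3 (adjusted p = 0.00873 and 0.00242). So did Glrx3 and Glrx5, glutaredoxins linked to iron-sulfur clusters, at 22.7 ± 0.678 and 18.4 ± 0.837 FPKM in si-CDCP1 and 19.4 ± 0.308 and 15.7 ± 0.604 FPKM in si-NC, while the sestrin gene Sesn3 fell there (adjusted p = 0.0334), at 7.55 ± 0.365 FPKM in si-CDCP1 and 8.49 ± 0.428 FPKM in si-NC. In voom without si-CDCP1 replicate 3, 2.38% of all genes rose and 1.04% fell, and its p-values have the limit stated above for leaving out that library.

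Partners and further targets of NRF2 were again mixed. Mafg, a small MAF partner of NRF2, had 32.7, 33.5 and 34.0 FPKM in si-CDCP1 and 28.7, 30.1 and 30.6 FPKM in si-NC, and Osgin1, an oxidative stress-induced growth inhibitor gene, had 11.6, 10.7 and 9.61 FPKM in si-CDCP1 and 12.7, 13.2 and 12.7 FPKM in si-NC. Their limma adjusted p-values were 0.289 and 0.28. Of the 20 tested genes in the list of NRF2 partners and NRF2-linked enzymes, 10 had log2 differences above 0 and 10 below. Among 7 tested genes linked to ferroptosis, 2 were above 0 and 5 below, or 4 and 3 without si-CDCP1 replicate 3, and Aifm2, a suppressor of ferroptosis that recycles ubiquinone, had 11.6, 11.2 and 10.1 FPKM in si-CDCP1 and 11.9, 12.8 and 12.2 FPKM in si-NC.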

How the data were processed

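The values analysed are FPKM, deposited by the authors in 1 table for 6 libraries with gene lengths, per the file headers. The build is mm10, per the submitters' processing notes, and no source used here names the aligner, counter, strand setting or handling of reads with several matches. FPKM times gene length gave whole reads for 100% of values (tolerance 0.01 read), and these recovered reads were used for counts. The test was limma 3.58.1 (R 4.3.3) on log2(FPKM + 1) with an intensity trend, two-sided, over the 12080 genes averaging 1 FPKM or more, BH threshold 0.05. It was tested on simulated data. Limma voom used recovered reads (at least 10 in 3 libraries) with the library totals the steps imply. A floor of 3 reads at 1 kb was 0.149 to 0.192 FPKM. Read-based values cover counting error only, and p-values reflect variation among these libraries only, possibly technical, since separate cultures are not stated. No replicates were duplicates (chi-square per degree of freedom at least 2.98). Copies are genes that the table lists with the same protein accession. The genes and lists were chosen with earlier results of these data known. Library values are given for genes with an unadjusted p under 0.05 whose groups do not overlap, for anchor genes of each role and for genes called under any setting. Blvrb, Prdx2, Prdx4 and Prdx5 were given in full after their values were seen. Differences are given for these called or separated genes and for Nqo1. Of the list of other pathway genes, 2 names had no row.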

Additional observations from a re-analysis of the deposited data

How the results depend on the processing

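Over all genes the count called, 0 in limma, was 1 with equal FPKM sums, 2 with quantile normalisation, 2 for protein-coding genes, 4 at a mean of at least 5 FPKM, 7 with no filter, 3 with the length trend removed (13 also without si-CDCP1 replicate 3), 865 with library weights and 5 in voom (491 without si-CDCP1 replicate 3, and 2 to 4 without any other library). Leaving out 1 library in limma gave 0 to 1. The count for the 47 genes moved off 0 only with library weights (6) and in voom without si-CDCP1 replicate 3 (6), and the other pathway genes likewise (12 and 5). With the replicate number as a block, 1 gene was called over all and 0 of the 45. Same-numbered libraries correlated in their deviations by -0.02, 0.03 and 0.02. These values gave no sign of pairing by number, but so few libraries cannot exclude it. The median log2 difference of the set, 0.04, was -0.011 with equal FPKM sums and -0.020 with quantile normalisation, which put the median of all genes at -0.039 and -0.0027, against 0.0077. Equal sums also turned the split at an unadjusted p under 0.05 over all genes to 537 higher and 1301 lower, against 1080 and 642. Leaving out 1 library in limma kept the median of the set between 0.03 and 0.05. Prdx3 changed sign to -0.015 with quantile normalisation and to -0.026 with the length trend removed and without si-CDCP1 replicate 3. The other 10 genes with a stated difference kept their direction under all 24 settings, with Gpx4 between 0.19 and 0.31 and Hmox1 between 0.23 and 0.53, but Fth1 (0.16) came to 0.017 with quantile normalisation and Prdx4 (0.10) to 0.0019 with the length trend removed and without si-CDCP1 replicate 3. Of the 36 without one, 23 changed sign under at least 1 setting. The cause of these changes was not tested. Mgst3, Gpx7, Gpx3 and Txnrd2 are limited by read depth.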
